A study of Homo sapiens with 14 samples.

Results

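Cadherins are calcium-dependent adhesion proteins that sit in the cell membrane and bind cadherins on the neighbouring cell. Classical cadherins hold adherens junctions together through beta-catenin and alpha-catenin inside the cell, and are divided into type I, which includes E-cadherin and N-cadherin, and type II. Non-clustered protocadherins are related proteins, sorted into delta-1 and delta-2 groups, that act mostly in weak adhesion, cell sorting and signalling. In embryos the neural crest arises at the border of the neural plate, and its cells exchange some cadherins for others as they leave the epithelium and migrate.

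The genes described here are the 34 rows, of 26485 in the count table, whose symbol is CDH or PCDH followed only by digits. They comprise 5 type I classical cadherins, 13 type II classical cadherins, 5 other cadherins, 3 delta-1, 5 delta-2 and 3 other non-clustered protocadherins. Of the 34, 29 passed a filter on low counts and were tested, and 17 of these had a group mean of at least 10 CPM, the counts scaled to library size. No member shares an exon with another gene on its strand, so reads could not be split between overlapping genes.

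Messenger RNA was sequenced from the human embryonic stem cell (hESC) line WA01, also called H1, and from neural crest cultures induced from it for 5 days, with 2 libraries in each of 7 groups. All 6 induced groups received CHIR99021, a GSK3 inhibitor that activates Wnt signalling, over hours 0 to 72, at 10 µM (high Wnt) or 3 µM (low Wnt). At each dose, 1 group also received 10 µM SB431542 (SB4), which blocks the kinase of receptors for TGF-beta, activin and nodal, 1 received recombinant human TGF-beta 1 at 5 ng/µL as the labels state it (TGFB), and 1 received neither, the additives being given over hours 0 to 120. Induced groups were compared with uninduced hESCs. The groups are therefore high Wnt + SB4, high Wnt + TGFB, high Wnt, low Wnt + SB4, low Wnt + TGFB, low Wnt and hESC. All libraries come from 1 cell line, and nothing in the labels says that a group's 2 libraries are separate cultures, so p-values measure only their spread, which may be technical.

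Library totals ran from 10879287 to 19106827 counts, so that where a library has 0 counts of a gene its level could still be as high as 0.157 to 0.269 CPM. Marker genes showed how far the cultures matched their labels. The summed level of 8 neural crest markers was 343 and 327 CPM in high Wnt + SB4, 372 and 346 CPM in high Wnt + TGFB and 307 and 283 CPM in high Wnt libraries. It was 86.1 and 81.8 CPM in low Wnt + SB4, 111 and 117 CPM in low Wnt + TGFB, 72.2 and 66.4 CPM in low Wnt and 136 and 128 CPM in hESC libraries. PAX3 led the sum in the high Wnt groups, and 3 of the 8 were higher and 3 lower in high Wnt than in low Wnt cultures. Of these markers, SOX10, FOXD3 and TFAP2A stood at or below 1.66, 0.797 and 0.279 CPM in every high Wnt library with or without additive. In low Wnt libraries SOX10 stood at 4.26 and 3.83 CPM and FOXD3 at 0.852 and 0.179 CPM. In low Wnt + TGFB libraries SOX10 stood at 6.19 and 6.5 CPM, FOXD3 at 7.61 and 9.48 CPM and TFAP2A at 11.9 and 19.1 CPM. These 3 are only part of the list, which ETS1 and SNAI2 led in low Wnt + TGFB and ETS1 and FOXD3 led in hESCs. Low Wnt + TGFB libraries also held markers of pluripotent cells at a summed 900.1 and 983 CPM, so these values do not single out that group as neural crest. The bulk RNA of a culture cannot tell fewer cells of a type from less RNA per cell.

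SMAD proteins, which act downstream of the TGF-beta receptors, bind the short box CAGAC, or GTCTG on the other strand. Promoter sequences are therefore shown for 4 members, picked from those with an available promoter sequence, which CDH1, CDH6 and PCDH10 lacked. Each is the 250 bases before the start of the gene in RefSeq (GRCh38.p14), on the minus strand of the chromosome and written 5′ to 3′ along the gene, and capitals mark the box. PCDH8 spans chr13:52848641-52848890, PCDH19 chrX:100410274-100410523, PCDH18 chr4:137532495-137532744 and CDH2 chr18:28177131-28177380.
PCDH8: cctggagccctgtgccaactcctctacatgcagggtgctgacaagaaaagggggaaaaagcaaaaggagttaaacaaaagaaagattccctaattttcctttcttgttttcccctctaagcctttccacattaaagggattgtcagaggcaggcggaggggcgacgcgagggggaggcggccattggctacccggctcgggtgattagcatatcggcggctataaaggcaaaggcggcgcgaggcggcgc
PCDH19: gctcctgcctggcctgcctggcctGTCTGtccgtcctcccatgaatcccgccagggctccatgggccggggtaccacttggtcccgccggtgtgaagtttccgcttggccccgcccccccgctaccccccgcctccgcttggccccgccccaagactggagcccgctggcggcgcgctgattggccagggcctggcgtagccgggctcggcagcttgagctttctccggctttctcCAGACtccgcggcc
PCDH18: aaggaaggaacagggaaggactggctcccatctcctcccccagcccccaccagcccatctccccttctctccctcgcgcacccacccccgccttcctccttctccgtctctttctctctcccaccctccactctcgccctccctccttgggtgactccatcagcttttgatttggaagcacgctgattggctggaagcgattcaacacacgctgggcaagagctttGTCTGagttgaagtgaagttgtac
CDH2: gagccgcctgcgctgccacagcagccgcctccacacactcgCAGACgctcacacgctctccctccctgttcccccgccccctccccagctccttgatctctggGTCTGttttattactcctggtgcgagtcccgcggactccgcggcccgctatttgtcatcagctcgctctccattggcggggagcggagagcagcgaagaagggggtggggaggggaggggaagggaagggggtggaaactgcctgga

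PCDH8 held no box in this stretch, PCDH18 held 1 at position -24, PCDH19 held 2 at -226 and -14, and CDH2 held 2 at -209 and -147, counted from the RefSeq start. The RefSeq start of CDH2 lies 316 bases from the start in the count table. Windows of 300 bases, 250 before and 50 after the start, matched 21 of the 34 members, and 17 had a start within 500 bases of that in the count table. No window was available for CDH1, CDH3, CDH6, CDH11, CDH13, CDH24 or PCDH10, among others. The window of PCDH1 lay 8783 bases off and was not used. The shares below therefore say nothing about these members. On either strand, CAGAC was present in 11 of these 17 windows (64.7%) and in 45.3% of 35116 windows of all genes. The box CTTTGA, the short core bound by TCF factors of the Wnt pathway, was present in 3 of 17 (17.6%) and in 12.9% of all windows. The E-box CACCTG, bound by SNAI and ZEB repressors, was present in 1 of 17 (5.88%) and in 20.6% of all windows. A match describes letters in the window and is no evidence of binding.

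The makeup of the family differed between the groups more than its total. Summed over the 34 members and corrected for exon length (FPKM, that is CPM divided by kilobases of exon), the level was 372 ± 6.97 in high Wnt + SB4, 247 ± 6.95 in high Wnt + TGFB, 306 ± 13.1 in high Wnt, 318 ± 8.88 in low Wnt + SB4, 242 ± 4.86 in low Wnt + TGFB, 261 ± 6.2 in low Wnt and 226 ± 6.18 in hESCs (SD, n = 2 each). In hESCs, CDH1 and CDH3 made up 31.3% and 30.1% of this sum. CDH2 alone made up 47.2% in low Wnt cultures, followed by CDH11 with 16.8% and PCDH18 with 15.9%. CDH6 led in high Wnt cultures with 31.5%, CDH2 made up 22.8%, and CDH11, CDH24 and PCDH18 made up 13.2%, 13.1% and 12.98%. Type II cadherins as a class made up 58.9% in high Wnt cultures, 27.5% in low Wnt cultures and 5.95% in hESCs, and type I cadherins made up 24.6%, 50.6% and 72.3% in the same 3 groups.

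**Figure D1:**
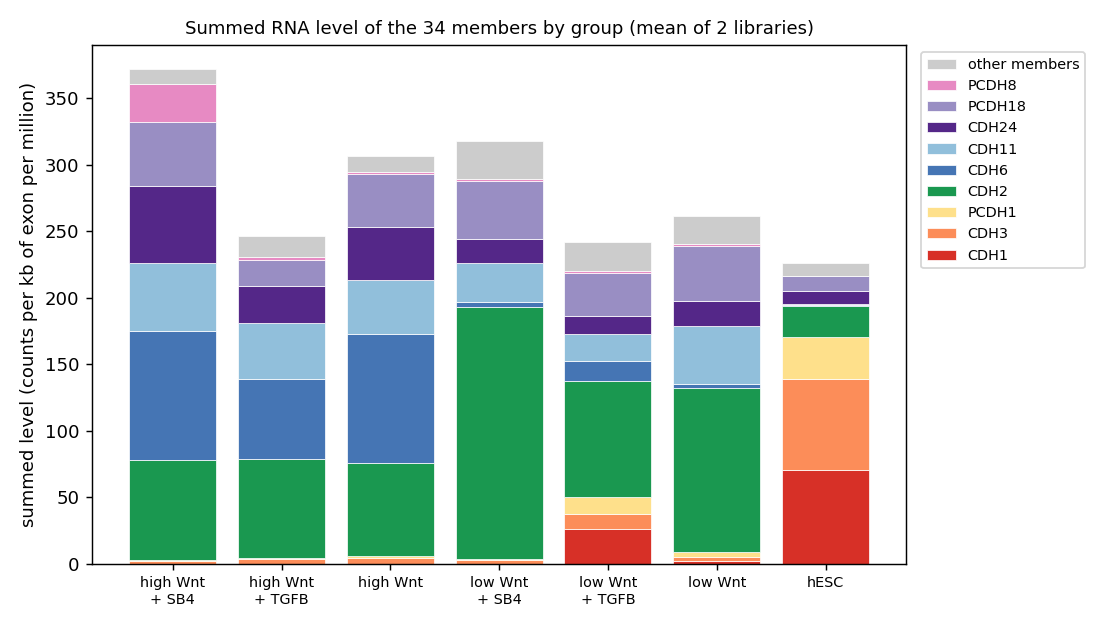
Summed RNA level of the 34 members in each group, in FPKM, as the mean of 2 libraries; colours give the part of 9 named members and of all the others. CDH1 and CDH3 fill most of the hESC bar, CDH2 most of the low Wnt + SB4 bar, and CDH6 takes more than CDH2 in high Wnt cultures with SB4 or with no additive.

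The additives moved the makeup further. With SB4, CDH2 made up 59.6% of the sum in low Wnt + SB4 cultures, and PCDH8 made up 7.74% in high Wnt + SB4 cultures, against 0.652% in high Wnt cultures. With TGFB, CDH1 made up 10.8% in low Wnt + TGFB cultures, against 0.907% in low Wnt cultures, and PCDH18 made up 7.92% in high Wnt + TGFB cultures, against 12.98% in high Wnt cultures. Of the 29 tested members, the group of highest mean was hESC for 7, low Wnt + SB4 for 6, high Wnt + SB4 for 5, high Wnt + TGFB for 4, low Wnt + TGFB for 3, low Wnt for 3 and high Wnt for 1.

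**Figure D2:**
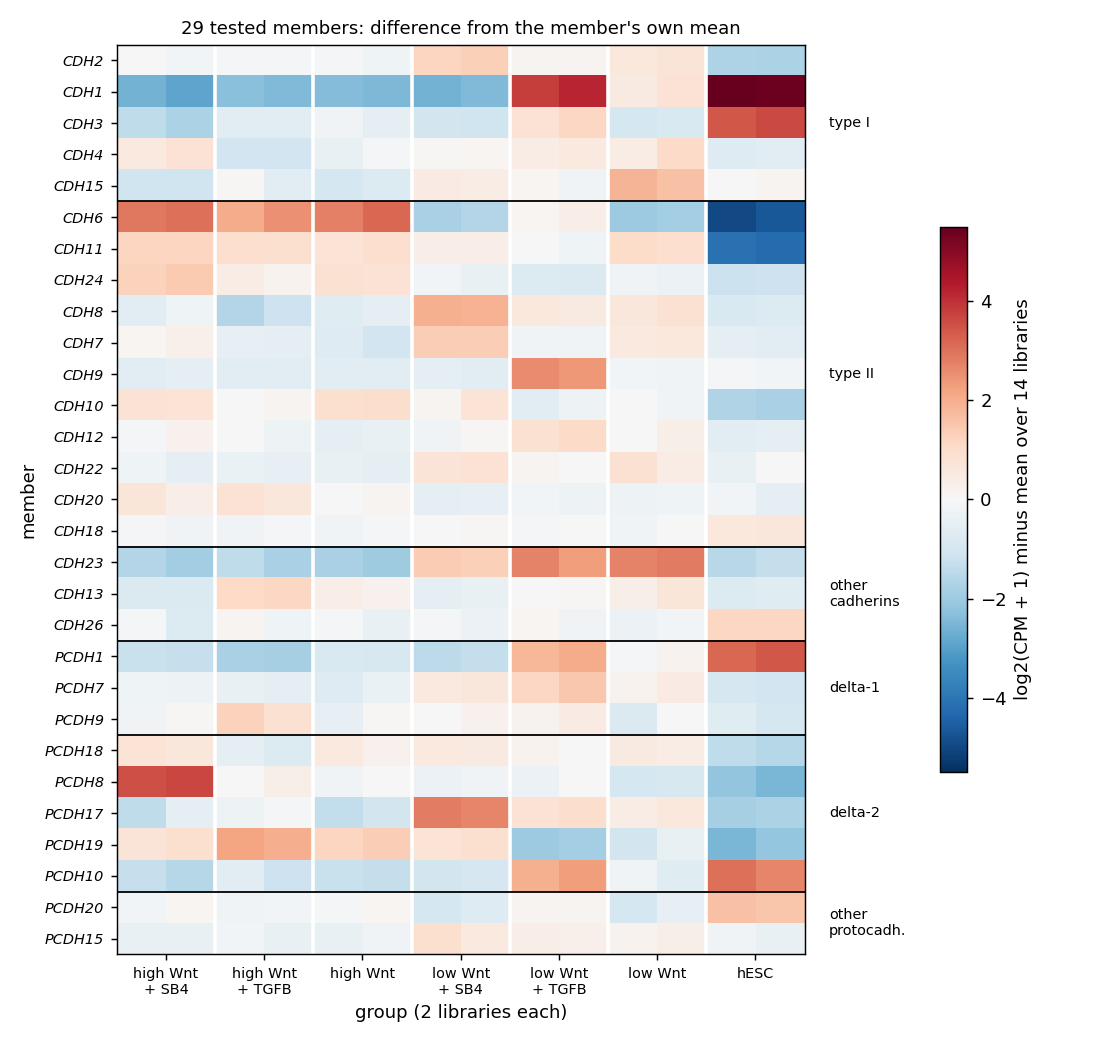
Heat map of the 29 tested members (rows, by class) in all 14 libraries (columns, by group); colour is log2(CPM + 1) minus the member's mean over the 14 libraries, running between -4.94 and 5.48. Both libraries of a group look alike in most rows, CDH1, CDH3, PCDH1 and PCDH10 are red in hESC and in low Wnt + TGFB columns, CDH6 is red in the high Wnt columns, and PCDH8 is red in the high Wnt + SB4 columns.

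Changes were tested with edgeR's quasi-likelihood F-test across all 16149 genes that passed the filter, and calls were made where the p adjusted by Benjamini-Hochberg was under 0.05. Every adjusted p below comes from that test unless another tool is named. Counts over the 29 members describe those that passed the filter. Against hESCs, 19 members were higher and 7 lower in low Wnt cultures, where 35.8% of all tested genes were higher and 35.6% lower. In high Wnt cultures 12 were higher and 9 lower than in hESCs, against 36.3% and 36.1% of all genes. In low Wnt + TGFB cultures 17 were higher and 7 lower than in hESCs, against 31.4% and 31.8% of all genes. The median log2 fold change of the members was 1.55, 0.47 and 1.25 in these 3 comparisons, and that of all genes lay between -0.01 and 0.02 in every comparison. The 3 comparisons share the hESC libraries. CDH18, counted as lower in all 3, passed the filter only through the hESC libraries, with 10 and 9 counts there and at most 4 elsewhere. CDH9, counted as higher in low Wnt + TGFB cultures, passed it only through the libraries of that group. These calls are descriptive, as the filter favoured their direction.

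Between the doses, 7 members were higher and 15 lower in high Wnt than in low Wnt cultures, against 19.4% and 19.1% of all genes, with a member median log2 fold change of -0.82. SB4 in low Wnt cultures raised 6 members and lowered 8, against 4.84% and 6.39% of all genes. TGFB in low Wnt cultures raised 10 and lowered 8, and among all genes 13.7% and 12.2%. SB4 in high Wnt cultures raised 6 and lowered 2, against 9.94% and 11.6%. TGFB in high Wnt cultures raised 4 and lowered 7, against 3.75% and 3.49%. The member medians for these 4 effects were 0.07, 0.17, 0.16 and 0.09 on the log2 scale. The count of 11 for TGFB in high Wnt cultures depended on single libraries: it was 5 without high Wnt replicate 1, 7 without high Wnt replicate 2 and 5 without high Wnt + TGFB replicate 1.

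The difference of an additive's effects between the doses was tested as well. The SB4 effect was more positive in high Wnt than in low Wnt cultures for 7 members and more negative for 5, against 2.71% and 3.36% of all genes. The TGFB effect was more positive for 6 members and more negative for 7, against 5.73% and 6.06% of all genes. The effects at the 2 doses each rest on their own libraries.

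CDH1, the E-cadherin of epithelia (chromosome 16, 68737292 to 68835541, plus strand in hg38), was high in hESCs and below 1 CPM in 4 of the 6 induced groups. It had 0.318 and 0.0557 CPM in high Wnt + SB4, 0.627 and 0.491 in high Wnt + TGFB and 0.499 and 0.413 in high Wnt. CDH1 was at 0.305 and 0.472 CPM in low Wnt + SB4, 109.7 and 142 in low Wnt + TGFB, 10.3 and 12.6 in low Wnt and 352 and 328 in hESCs. Its 2 hESC libraries stood above every induced library, the low Wnt + TGFB libraries came next, and all high Wnt libraries and the low Wnt + SB4 libraries stood below 1 CPM. Those low levels rest on between 1 and 9 counts per library. CDH1 fell in high Wnt relative to low Wnt cultures (log2 fold change -4.64 ± 0.31, adjusted p = 2.7e-09). TGFB raised it 11-fold in low Wnt cultures (3.46 ± 0.16, adjusted p = 4.3e-10), which left it 2.70-fold below hESCs (-1.43 ± 0.13, adjusted p = 1.3e-07), and SB4 lowered it 28.4-fold there (-4.83 ± 0.29, adjusted p = 2.4e-08).

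In high Wnt cultures CDH1 had 5 and 1 counts with SB4, 7 and 8 with TGFB and 6 and 6 with no additive, and neither effect passed the test (SB4 -1.3 ± 0.71, adjusted p = 0.216; TGFB 0.27 ± 0.58, adjusted p = 0.86). The TGFB effect was lower in high Wnt than in low Wnt cultures (difference -3.19 ± 0.67, adjusted p = 0.00443), with an adjusted p of 0.0519 without high Wnt replicate 1. The SB4 effects also differed between the doses (3.53 ± 0.98, adjusted p = 0.0413), but the adjusted p was 0.0731 without high Wnt replicate 1, 0.0933 without high Wnt replicate 2, 0.728 without high Wnt + SB4 replicate 1, 0.0597 without low Wnt replicate 2, 0.0948 without low Wnt + SB4 replicate 1 and 0.0603 without low Wnt + SB4 replicate 2, and the difference without high Wnt + SB4 replicate 1 was 1.98.

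Markers of pluripotent cells and of epithelium moved in the same direction as CDH1 in low Wnt cultures. Endoderm markers did so with TGFB and were mixed with SB4. All 5 markers of pluripotent cells rose with TGFB and fell with SB4, and their summed level was 900.1 and 983 CPM with TGFB, 170.3 and 181 CPM with SB4, and 299.98 and 332 CPM with no additive. POU5F1 stood at 44.9 and 38.9 CPM with TGFB, 0.305 and 0.786 CPM with SB4 and 1.95 and 4.36 CPM with no additive. All 5 tested markers of surface ectoderm and epithelium, of 6 listed, rose with TGFB (summed level 717 and 944 CPM, against 245 and 268 CPM), with TP63 at 0. With SB4, 4 of them fell (149 and 144 CPM). In high Wnt cultures, where CDH1 was at 0.499 and 0.413 CPM, the epithelial sum was 602 and 484 CPM. KRT8 and KRT18 led this sum, and GRHL2 was at 0. All 5 tested epithelial markers were lower in high Wnt cultures than in hESCs, against 36.1% of all genes. Relative to low Wnt cultures 3 were higher and 1 lower, against 19.4% and 19.1%. All 4 endoderm markers rose with TGFB (60.4 and 109 CPM, against 17.2 and 17.99 CPM). With SB4 the endoderm sum was also higher (29.7 and 33.3 CPM), but CXCR4 led it as the only marker with a mean over 1 CPM. SOX17 was at 0 there. With SB4, 1 endoderm marker was called higher and 1 lower, and the median log2 fold change of the 4 was -3.38. The part of these markers in the CDH1 values was not tested.

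CDH3, the P-cadherin of placenta and basal epithelia (chromosome 16, 68644248 to 68699054, plus strand), ends 38.2 kb before CDH1 on the same strand. It had 8.58 and 6.63 CPM in high Wnt + SB4, 15.6 and 15.9 in high Wnt + TGFB and 21.1 and 17.1 in high Wnt. CDH3 was at 11.8 and 10.7 CPM in low Wnt + SB4, 43.2 and 54.4 in low Wnt + TGFB, 11.8 and 13 in low Wnt and 268 and 314 in hESCs. Here too hESCs were highest and low Wnt + TGFB came next, but CDH3 did not drop to near 0 in any group. TGFB raised CDH3 in low Wnt cultures (1.98 ± 0.15, adjusted p = 5.8e-08) and did not pass the test in high Wnt cultures (-0.27 ± 0.16, adjusted p = 0.36). The TGFB effects differed (-2.25 ± 0.22, adjusted p = 2.5e-06). SB4 lowered it in high Wnt cultures (-1.33 ± 0.17, adjusted p = 3.5e-05) and did not pass the test in low Wnt cultures (-0.14 ± 0.16, adjusted p = 0.64). These SB4 effects differed as well (-1.19 ± 0.23, adjusted p = 0.00453). CDH3 was higher in high Wnt than in low Wnt cultures (0.62 ± 0.16, adjusted p = 0.00542), where CDH1 was lower, but its adjusted p was 0.0888 without high Wnt replicate 1 and 0.050 without low Wnt replicate 1, the last just over the threshold.

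CDH2, the N-cadherin of neural and mesenchymal cells (chromosome 18, 27950963 to 28177446, minus strand), was the most abundant member per exon length in 4 of the 7 groups. It had 348 and 318 CPM in high Wnt + SB4, 333 and 329.6 in high Wnt + TGFB and 321 and 299.8 in high Wnt. CDH2 was at 807 and 880.1 CPM in low Wnt + SB4, 388 and 393 in low Wnt + TGFB, 524 and 574 in low Wnt and 108 and 104 in hESCs. All induced libraries stood above both hESC libraries, the low Wnt + SB4 libraries were the highest and the 6 libraries with 10 µM CHIR99021 lay close together. CDH2 was lower in high Wnt than in low Wnt cultures (-0.82 ± 0.09, adjusted p = 1.4e-06). SB4 raised it (0.62 ± 0.09, adjusted p = 2.1e-04) and TGFB lowered it (-0.49 ± 0.09, adjusted p = 0.000623) in low Wnt cultures. Neither passed the test in high Wnt cultures (0.10 ± 0.09, adjusted p = 0.461 for SB4; 0.09 ± 0.09, adjusted p = 0.621 for TGFB). The TGFB effects differed between the doses (0.59 ± 0.13, adjusted p = 0.00549). So did the SB4 effects (-0.52 ± 0.13, adjusted p = 0.0209), with an adjusted p of 0.0957 without high Wnt replicate 1, 0.103 without high Wnt + SB4 replicate 2, 0.113 without low Wnt replicate 1 and 0.111 without low Wnt + SB4 replicate 2.

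Neural tube markers followed the same order in low Wnt cultures as CDH2. Their summed level over 5 genes was 492 and 568 CPM with SB4, 75.2 and 79.3 CPM with TGFB and 297 and 289 CPM with no additive, led by SOX1, and 4 of 5 rose with SB4 while all 5 fell with TGFB. In high Wnt cultures their sum was 151 and 169.9 CPM with SB4, against 33.5 and 41.9 CPM with no additive. The SB4 effect on CDH2 did not pass the test there. The part of these markers in the CDH2 values was not tested.

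CDH4, the R-cadherin of retina and brain (chromosome 20, 61252426 to 61940617, plus strand, listed also on 1 alternate contig), had 14.7 and 17.9 CPM in high Wnt + SB4, 4.12 and 4.17 in high Wnt + TGFB and 7.06 and 9.14 in high Wnt. CDH4 was at 10.1 and 10.5 CPM in low Wnt + SB4, 13.3 and 14.6 in low Wnt + TGFB, 13.2 and 21 in low Wnt and 5.55 and 6.19 in hESCs. In high Wnt cultures the 2 additives moved it apart, with the SB4 libraries above and the TGFB libraries below both high Wnt libraries. SB4 raised CDH4 in high Wnt cultures (1.0 ± 0.21, adjusted p = 0.00278), and its SB4 effect was more positive there than in low Wnt cultures (1.74 ± 0.29, adjusted p = 0.00129). The decrease with TGFB in high Wnt cultures (-0.97 ± 0.24, adjusted p = 0.0185) had an adjusted p of 0.171 without high Wnt replicate 2, 0.109 without high Wnt + TGFB replicate 1 and 0.122 without high Wnt + TGFB replicate 2. The decrease with SB4 in low Wnt cultures (-0.74 ± 0.20, adjusted p = 0.025) had an adjusted p of 0.402 without low Wnt replicate 2, 0.13 without low Wnt + SB4 replicate 1 and 0.121 without low Wnt + SB4 replicate 2, and was -0.36 without low Wnt replicate 2. CDH4 was lower in high Wnt than in low Wnt cultures (-1.07 ± 0.21, adjusted p = 0.000612), and by 0.70 on the log2 scale without low Wnt replicate 2, which was the higher of the pair.

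**Figure D3:**
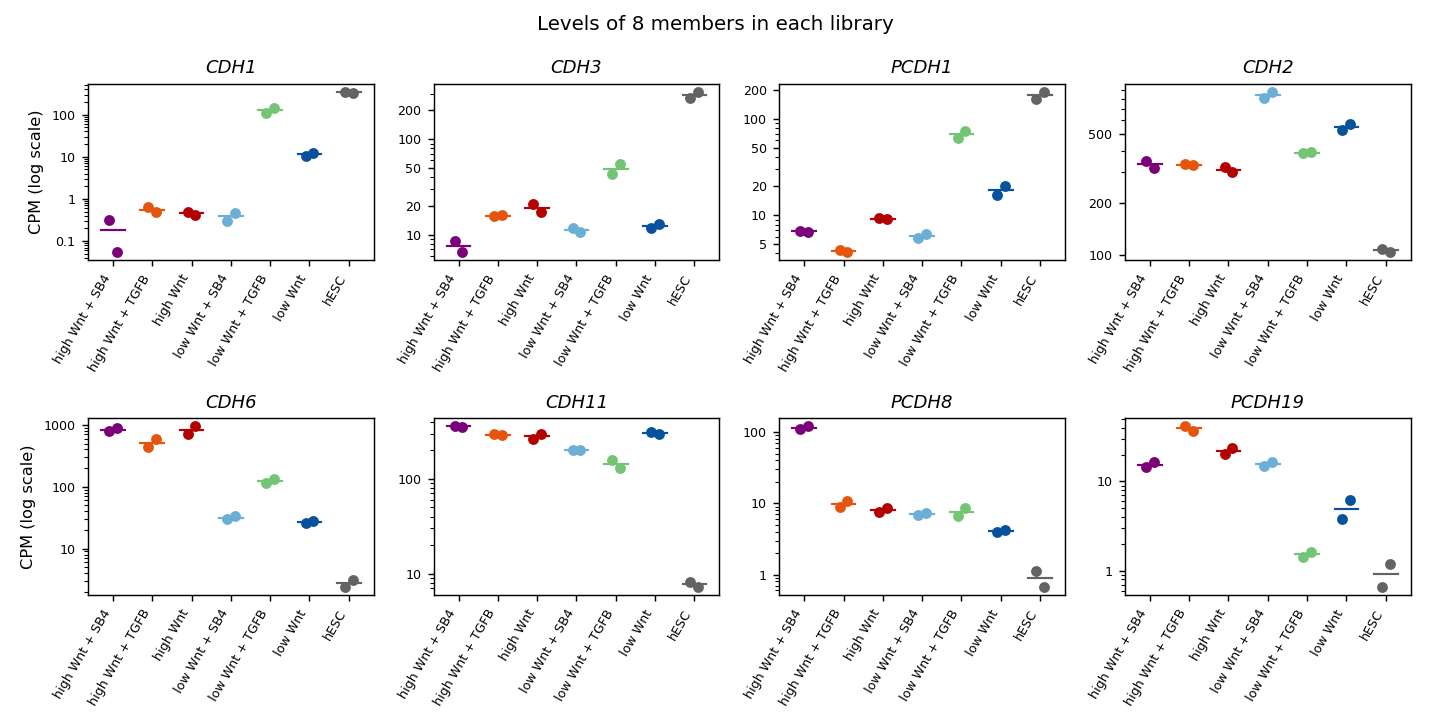
Levels of 8 members in every library, as scaled CPM on a log axis, with 2 points per group and a line at their mean; axes differ between panels. CDH1, CDH3 and PCDH1 are highest in hESC and next in low Wnt + TGFB, CDH6 is highest in the high Wnt groups, and PCDH8 stands apart in high Wnt + SB4 at 110.02 and 120.4 CPM.

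CDH6, the kidney cadherin that is also expressed in premigratory neural crest of vertebrate embryos (chromosome 5, 31193655 to 31329146, plus strand), was the most abundant member per exon length in high Wnt cultures. It had 789 and 876 CPM in high Wnt + SB4, 436 and 596 in high Wnt + TGFB and 715 and 945 in high Wnt. CDH6 was at 30.04 and 33.6 CPM in low Wnt + SB4, 114 and 135 in low Wnt + TGFB, 25.6 and 27.9 in low Wnt and 2.44 and 3.14 in hESCs. Every library with 10 µM CHIR99021 stood above every library with 3 µM, and the low Wnt + TGFB libraries stood above the other low Wnt libraries. CDH6 was 31.1-fold higher in high Wnt than in low Wnt cultures (4.96 ± 0.18, adjusted p = 1.4e-12) and 299-fold higher than in hESCs (8.22 ± 0.23, adjusted p = 3.3e-14). TGFB raised it 4.66-fold in low Wnt cultures (2.22 ± 0.16, adjusted p = 4.0e-08), and the TGFB effect was lower in high Wnt cultures (-2.91 ± 0.22, adjusted p = 2.5e-07). There TGFB lowered it (-0.69 ± 0.15, adjusted p = 0.00779), with an adjusted p of 0.13 without high Wnt replicate 2 and 0.151 without high Wnt + TGFB replicate 1. SB4 did not pass the test at either dose (0.00 ± 0.15, adjusted p = 0.995 in high Wnt; 0.25 ± 0.17, adjusted p = 0.378 in low Wnt).

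Paraxial mesoderm markers also separated the doses. Their summed level over 5 genes was 91.5 and 73.3 CPM in high Wnt + SB4, 329 and 305 CPM in high Wnt + TGFB and 151 and 126 CPM in high Wnt cultures, against at most 7.79 CPM in any low Wnt library with or without additive, and all 5 were higher in high Wnt than in low Wnt cultures. Their part in the CDH6 values was not tested.

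CDH11, the osteoblast cadherin of mesenchyme and of migrating neural crest in frogs (chromosome 16, 64943753 to 65122137, minus strand), had 358 and 356 CPM in high Wnt + SB4, 294 and 290.3 in high Wnt + TGFB and 265 and 299 in high Wnt. CDH11 was at 200.1 and 202 CPM in low Wnt + SB4, 159 and 131 in low Wnt + TGFB, 313 and 299 in low Wnt and 8.07 and 7.29 in hESCs. It was low in hESCs and high in every induced group, and the 2 doses without additive overlapped (-0.12 ± 0.10, adjusted p = 0.388). Against hESCs it was 36.6-fold higher in high Wnt (5.19 ± 0.13, adjusted p = 1.5e-14) and 39.7-fold higher in low Wnt cultures (5.31 ± 0.13, adjusted p = 1.4e-14). Both additives lowered it in low Wnt cultures, SB4 (-0.60 ± 0.10, adjusted p = 0.000725) less than TGFB (-1.08 ± 0.10, adjusted p = 6.3e-07) by fold, a difference that was not tested. In high Wnt cultures TGFB did not pass the test (0.05 ± 0.10, adjusted p = 0.842), and SB4 raised it (0.34 ± 0.10, adjusted p = 0.022) with an adjusted p of 0.201 without high Wnt replicate 1, 0.0957 without high Wnt + SB4 replicate 1 and 0.0865 without high Wnt + SB4 replicate 2. Both additives' effects were more positive in high Wnt than in low Wnt cultures (SB4 0.94 ± 0.14, adjusted p = 4.9e-04; TGFB 1.13 ± 0.14, adjusted p = 4.5e-05).

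CDH24, a type II cadherin that binds catenins (chromosome 14, 23047061 to 23057538, minus strand), had 191 and 218 CPM in high Wnt + SB4, 106 and 91.5 in high Wnt + TGFB and 144 and 141 in high Wnt. CDH24 was at 70.9 and 59.1 CPM in low Wnt + SB4, 46.5 and 45.5 in low Wnt + TGFB, 70.1 and 64 in low Wnt and 34.9 and 35.6 in hESCs. All induced libraries stood above both hESC libraries, and all libraries with 10 µM CHIR99021 stood above all with 3 µM. It was higher in high Wnt than in low Wnt cultures (1.08 ± 0.11, adjusted p = 6.0e-07). SB4 raised it in high Wnt cultures (0.52 ± 0.11, adjusted p = 0.00245) and did not pass the test in low Wnt cultures (-0.04 ± 0.11, adjusted p = 0.859). These 2 effects differed (0.57 ± 0.16, adjusted p = 0.038), with an adjusted p of 0.0898 without high Wnt replicate 1, 0.111 without high Wnt replicate 2, 0.166 without high Wnt + SB4 replicate 2, 0.156 without low Wnt replicate 1, 0.0602 without low Wnt replicate 2 and 0.193 without low Wnt + SB4 replicate 2. TGFB lowered it in low Wnt cultures (-0.54 ± 0.11, adjusted p = 0.00189) and in high Wnt cultures (-0.53 ± 0.11, adjusted p = 0.00633), the second with an adjusted p of 0.0538 without high Wnt replicate 1 and 0.115 without high Wnt + TGFB replicate 2.

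CDH8, a type II cadherin of the developing brain (chromosome 16, 61652011 to 62036835, minus strand), had 5.4 and 7.24 CPM in high Wnt + SB4, 2.24 and 3.43 in high Wnt + TGFB and 5.15 and 5.78 in high Wnt. CDH8 was at 37.2 and 35.5 CPM in low Wnt + SB4, 13.8 and 12.6 in low Wnt + TGFB, 13.9 and 16.3 in low Wnt and 4.44 and 4.75 in hESCs. The low Wnt + SB4 libraries stood apart from the rest, and the high Wnt + TGFB libraries were the lowest. SB4 raised CDH8 in low Wnt cultures (1.26 ± 0.17, adjusted p = 9.6e-05) but did not pass the test in high Wnt cultures (0.21 ± 0.20, adjusted p = 0.501). The 2 effects differed (-1.05 ± 0.26, adjusted p = 0.0236), with an adjusted p of 0.0987 without high Wnt replicate 2, 0.113 without high Wnt + SB4 replicate 1, 0.097 without low Wnt replicate 1, 0.0815 without low Wnt + SB4 replicate 1 and 0.0589 without low Wnt + SB4 replicate 2. CDH8 was lower in high Wnt than in low Wnt cultures (-1.46 ± 0.19, adjusted p = 1.1e-05). TGFB lowered it in high Wnt cultures (-0.91 ± 0.23, adjusted p = 0.0206), with an adjusted p of 0.0648 with only those groups fitted, 0.0606 without high Wnt replicate 1, 0.134 without high Wnt replicate 2 and 0.199 without high Wnt + TGFB replicate 1.

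CDH23, the cadherin of hair cell tip links in the inner ear (chromosome 10, 71396934 to 71815947, plus strand), followed the dose in the opposite direction to CDH6. It had 1.65 and 1.11 CPM in high Wnt + SB4, 2.06 and 1.35 in high Wnt + TGFB and 1.33 and 1.1 in high Wnt. CDH23 was at 20.3 and 18.7 CPM in low Wnt + SB4, 51.9 and 38.9 in low Wnt + TGFB, 51.6 and 56.4 in low Wnt and 1.78 and 2.21 in hESCs. All libraries with 10 µM CHIR99021 and both hESC libraries lay at or below 2.21 CPM, and all libraries with 3 µM lay above 18 CPM. It was 44.5-fold lower in high Wnt than in low Wnt cultures (-5.47 ± 0.23, adjusted p = 1.0e-11), and high Wnt cultures did not pass the test against hESCs (-0.71 ± 0.33, adjusted p = 0.0653). SB4 lowered it in low Wnt cultures (-1.47 ± 0.16, adjusted p = 1.3e-05) and TGFB did not pass the test (-0.25 ± 0.16, adjusted p = 0.259). The SB4 effects differed between the doses (1.65 ± 0.38, adjusted p = 0.0122), with an adjusted p of 0.0733 without high Wnt replicate 2 and 0.126 without high Wnt + SB4 replicate 1.

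CDH13, the T-cadherin that is anchored to the membrane by a lipid and lacks the catenin-binding tail (chromosome 16, 82626794 to 83796610, plus strand), had 5.21 and 5.18 CPM in high Wnt + SB4, 22 and 22.8 in high Wnt + TGFB and 13.1 and 11.9 in high Wnt. CDH13 was at 6.7 and 7.23 CPM in low Wnt + SB4, 10.03 and 10.2 in low Wnt + TGFB, 12.5 and 16.2 in low Wnt and 5.4 and 5.77 in hESCs. SB4 lowered it at both doses, in high Wnt (-1.27 ± 0.17, adjusted p = 6.5e-05) and in low Wnt cultures (-1.04 ± 0.16, adjusted p = 4.2e-04). TGFB raised it in high Wnt cultures (0.84 ± 0.16, adjusted p = 0.00281), where its 2 libraries stood above those of every other group. In low Wnt cultures the TGFB value was lower (-0.51 ± 0.16, adjusted p = 0.0267), with an adjusted p of 0.0594 with scaling by library totals alone, 0.0662 with only those groups fitted, 0.0724 with DESeq2, 0.291 without low Wnt replicate 2, 0.115 without low Wnt + TGFB replicate 1 and 0.111 without low Wnt + TGFB replicate 2, and was -0.31 without low Wnt replicate 2. The TGFB effects differed between the doses (1.35 ± 0.22, adjusted p = 0.000656), and the SB4 effects did not pass that test (-0.22 ± 0.24, adjusted p = 0.695). Summed paraxial mesoderm markers ran in the same order as CDH13 in high Wnt cultures, at 91.5 and 73.3 CPM with SB4, 329 and 305 CPM with TGFB and 151 and 126 CPM with no additive, and their part was not tested.

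Among delta-1 protocadherins, PCDH1, an adhesion protein of epithelia (chromosome 5, 141853111 to 141878410, minus strand), had a pattern like that of CDH1. It had 6.86 and 6.68 CPM in high Wnt + SB4, 4.39 and 4.17 in high Wnt + TGFB and 9.31 and 9.08 in high Wnt. PCDH1 was at 5.85 and 6.44 CPM in low Wnt + SB4, 64.1 and 75.3 in low Wnt + TGFB, 16.1 and 20.1 in low Wnt and 161 and 193 in hESCs. The order of the 3 highest groups was hESC, low Wnt + TGFB and low Wnt, with no overlap between them. TGFB raised PCDH1 (1.95 ± 0.13, adjusted p = 2.0e-08) and SB4 lowered it (-1.55 ± 0.15, adjusted p = 4.8e-06) in low Wnt cultures. TGFB lowered it in high Wnt cultures (-1.1 ± 0.18, adjusted p = 0.00102), and SB4 did not pass the test (-0.44 ± 0.17, adjusted p = 0.0702). The effects differed between the doses for TGFB (-3.05 ± 0.22, adjusted p = 2.1e-07) and for SB4 (1.11 ± 0.23, adjusted p = 0.0057). The pluripotency and epithelial marker sums given beside CDH1 moved in the same direction in low Wnt cultures, and their part in the PCDH1 values was not tested.

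PCDH7, a delta-1 protocadherin that is needed for ectoderm cohesion in frog embryos (chromosome 4, 30720408 to 31146801, plus strand), had 10.3 and 10.03 CPM in high Wnt + SB4, 8.96 and 8.1 in high Wnt + TGFB and 7.06 and 9.28 in high Wnt. PCDH7 was at 18.2 and 19.4 CPM in low Wnt + SB4, 28 and 36.3 in low Wnt + TGFB, 14.2 and 16.8 in low Wnt and 5.99 and 5.43 in hESCs. The low Wnt + TGFB libraries were the highest and those of hESCs the lowest. TGFB raised it in low Wnt cultures (1.05 ± 0.16, adjusted p = 1.2e-04) and did not pass the test in high Wnt cultures (0.05 ± 0.19, adjusted p = 0.931). The 2 effects differed (-1.0 ± 0.25, adjusted p = 0.0124), with an adjusted p of 0.0847 without high Wnt replicate 2, 0.0564 without high Wnt + TGFB replicate 2, 0.0596 without low Wnt replicate 1 and 0.0742 without low Wnt + TGFB replicate 2. It was lower in high Wnt than in low Wnt cultures (-0.92 ± 0.18, adjusted p = 0.000522). Its increase from hESCs in high Wnt cultures (0.52 ± 0.20, adjusted p = 0.0249) had an adjusted p of 0.0837 with only those groups fitted, 0.0623 with DESeq2, 0.263 without high Wnt replicate 2 and 0.0951 without hESC replicate 2, and was 0.31 without high Wnt replicate 2.

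The largest increase with SB4 among the tested members was in a delta-2 protocadherin. PCDH8 (chromosome 13, 52843974 to 52848640, minus strand), known as paraxial protocadherin in frogs, where it acts in cell movements of the gastrula and in somites, had 110.02 and 120.4 CPM in high Wnt + SB4, 8.87 and 10.9 in high Wnt + TGFB and 7.48 and 8.53 in high Wnt. PCDH8 was at 6.76 and 7.33 CPM in low Wnt + SB4, 6.61 and 8.72 in low Wnt + TGFB, 3.96 and 4.24 in low Wnt and 1.11 and 0.678 in hESCs. The high Wnt + SB4 libraries stood more than 10-fold above each library of every other group. SB4 raised it 14.3-fold in high Wnt cultures (3.84 ± 0.16, adjusted p = 2.2e-10), and by more than in low Wnt cultures (difference 3.06 ± 0.25, adjusted p = 8.8e-07). In low Wnt cultures its value with SB4 was also higher (0.78 ± 0.19, adjusted p = 0.0107), with an adjusted p of 0.0842 without low Wnt replicate 1, 0.0562 without low Wnt replicate 2 and 0.101 without low Wnt + SB4 replicate 2. TGFB raised it in low Wnt cultures (0.91 ± 0.19, adjusted p = 0.0016) and did not pass the test in high Wnt cultures (0.31 ± 0.17, adjusted p = 0.338).

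Paraxial mesoderm markers had a summed level of 91.5 and 73.3 CPM in high Wnt + SB4 cultures, against 151 and 126 CPM in high Wnt cultures. Neural tube markers had a summed level of 151 and 169.9 CPM in high Wnt + SB4 cultures, against 33.5 and 41.9 CPM in high Wnt cultures, and 4 of 5 were called higher. Their part in the PCDH8 values was not tested.

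PCDH19, mutated in a form of epilepsy and able to act together with N-cadherin in adhesion (chromosome X, 100291644 to 100410273, minus strand), had 14.5 and 16.5 CPM in high Wnt + SB4, 41.4 and 37.2 in high Wnt + TGFB and 20.5 and 23.5 in high Wnt. PCDH19 was at 15.1 and 16.4 CPM in low Wnt + SB4, 1.42 and 1.64 in low Wnt + TGFB, 3.77 and 6.16 in low Wnt and 0.666 and 1.19 in hESCs. The high Wnt + TGFB libraries were the highest, and the low Wnt + TGFB libraries were the lowest among induced cultures. It was higher in high Wnt than in low Wnt cultures (2.15 ± 0.20, adjusted p = 2.2e-07). With 3 µM CHIR99021, SB4 raised it (1.66 ± 0.20, adjusted p = 4.1e-05) and TGFB lowered it (-1.69 ± 0.27, adjusted p = 1.6e-04). With 10 µM, TGFB raised it (0.83 ± 0.18, adjusted p = 0.00779), with an adjusted p of 0.0908 without high Wnt replicate 1 and 0.0797 without high Wnt + TGFB replicate 1, and SB4 did not pass the test (-0.51 ± 0.18, adjusted p = 0.0586). That SB4 value had an adjusted p of 0.0305 with no filter on low counts, 0.035 with only those groups fitted and 0.0349 with the hESC libraries left out. The effects of both additives differed between the doses, for SB4 (-2.17 ± 0.27, adjusted p = 8.9e-05) and for TGFB (2.52 ± 0.32, adjusted p = 5.2e-05).

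PCDH17, which acts at synapses and along axons in mouse brain (chromosome 13, 57631655 to 57728931, plus strand), had 2.41 and 5.07 CPM in high Wnt + SB4, 6.36 and 7.3 in high Wnt + TGFB and 2.49 and 3.37 in high Wnt. PCDH17 was at 60.7 and 56.4 CPM in low Wnt + SB4, 14.5 and 16.3 in low Wnt + TGFB, 10.8 and 12.3 in low Wnt and 1.48 and 1.7 in hESCs. The low Wnt + SB4 libraries stood apart from all others. SB4 raised it in low Wnt cultures (2.34 ± 0.20, adjusted p = 1.0e-06) and did not pass the test in high Wnt cultures (0.36 ± 0.28, adjusted p = 0.403), where its value was 0.77 with an adjusted p of 0.0445 without high Wnt + SB4 replicate 1. These SB4 effects differed (-1.99 ± 0.35, adjusted p = 0.0019). TGFB raised it in high Wnt cultures (1.21 ± 0.27, adjusted p = 0.00936), with an adjusted p of 0.101 without high Wnt replicate 1 and 0.0902 without high Wnt + TGFB replicate 2. It was lower in high Wnt than in low Wnt cultures (-1.96 ± 0.25, adjusted p = 8.8e-06). Against hESCs the high Wnt value was higher (0.90 ± 0.34, adjusted p = 0.0253), with an adjusted p of 0.186 without high Wnt replicate 2, 0.113 without hESC replicate 1 and 0.0502 without hESC replicate 2. Together with CDH2 and CDH8 it was among the members highest in low Wnt + SB4 cultures, where summed neural tube markers were also highest (492 and 568 CPM), and their part was not tested.

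PCDH18, a delta-2 protocadherin that can bind the adaptor protein Dab1 in mice (chromosome 4, 137518920 to 137532498, minus strand), had 298 and 275 CPM in high Wnt + SB4, 124 and 107 in high Wnt + TGFB and 257 and 212 in high Wnt. PCDH18 was at 262 and 254 CPM in low Wnt + SB4, 205 and 179 in low Wnt + TGFB, 256 and 236 in low Wnt and 66.7 and 59.6 in hESCs. It varied less among induced groups than the other delta-2 members, apart from the high Wnt + TGFB libraries, which stood below all other induced libraries. TGFB lowered it in high Wnt cultures (-1.02 ± 0.12, adjusted p = 3.4e-05). In low Wnt cultures the TGFB value was lower as well (-0.36 ± 0.11, adjusted p = 0.0276), with an adjusted p of 0.0845 with scaling by library totals alone, 0.165 without low Wnt replicate 1, 0.0524 without low Wnt replicate 2 and 0.241 without low Wnt + TGFB replicate 2. The 2 effects differed (-0.66 ± 0.16, adjusted p = 0.0116), with an adjusted p of 0.0638 without high Wnt replicate 1, 0.0622 without high Wnt + TGFB replicate 2 and 0.0568 without low Wnt replicate 2. SB4 did not pass the test at either dose (0.29 ± 0.11, adjusted p = 0.0809 in high Wnt; 0.07 ± 0.11, adjusted p = 0.755 in low Wnt), but in high Wnt its adjusted p was 0.0356 with scaling by library totals alone, 0.0405 with no filter on low counts and 0.0429 without high Wnt replicate 1.

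PCDH10, a protocadherin of forebrain axon tracts in mice (chromosome 4, 133149290 to 133194610, plus strand), had 0.318 and 0.0557 CPM in high Wnt + SB4, 1.07 and 0.429 in high Wnt + TGFB and 0.332 and 0.275 in high Wnt. PCDH10 was at 0.548 and 0.629 CPM in low Wnt + SB4, 11.2 and 14.3 in low Wnt + TGFB, 1.7 and 0.956 in low Wnt and 24.3 and 19.2 in hESCs. As with CDH1 and PCDH1, hESCs were highest and low Wnt + TGFB came next, without overlap. TGFB raised it in low Wnt cultures (3.26 ± 0.33, adjusted p = 1.7e-06), which left it lower than in hESCs (-0.77 ± 0.27, adjusted p = 0.0204), with an adjusted p of 0.068 with scaling by library totals alone, 0.173 without low Wnt + TGFB replicate 1 and 0.191 without hESC replicate 1. It was lower in high Wnt than in low Wnt cultures (-2.11 ± 0.56, adjusted p = 0.00646), with an adjusted p of 0.0546 without high Wnt replicate 2 and 0.0726 without low Wnt replicate 1. The high Wnt libraries held 4 and 4 counts, and the values there with SB4 (-0.73 ± 0.81, adjusted p = 0.572) and TGFB (1.2 ± 0.65, adjusted p = 0.316) did not pass the test. The pluripotency marker sums given beside CDH1 were also highest in hESCs and next in low Wnt + TGFB, and their part was not tested.

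**Figure D4:**
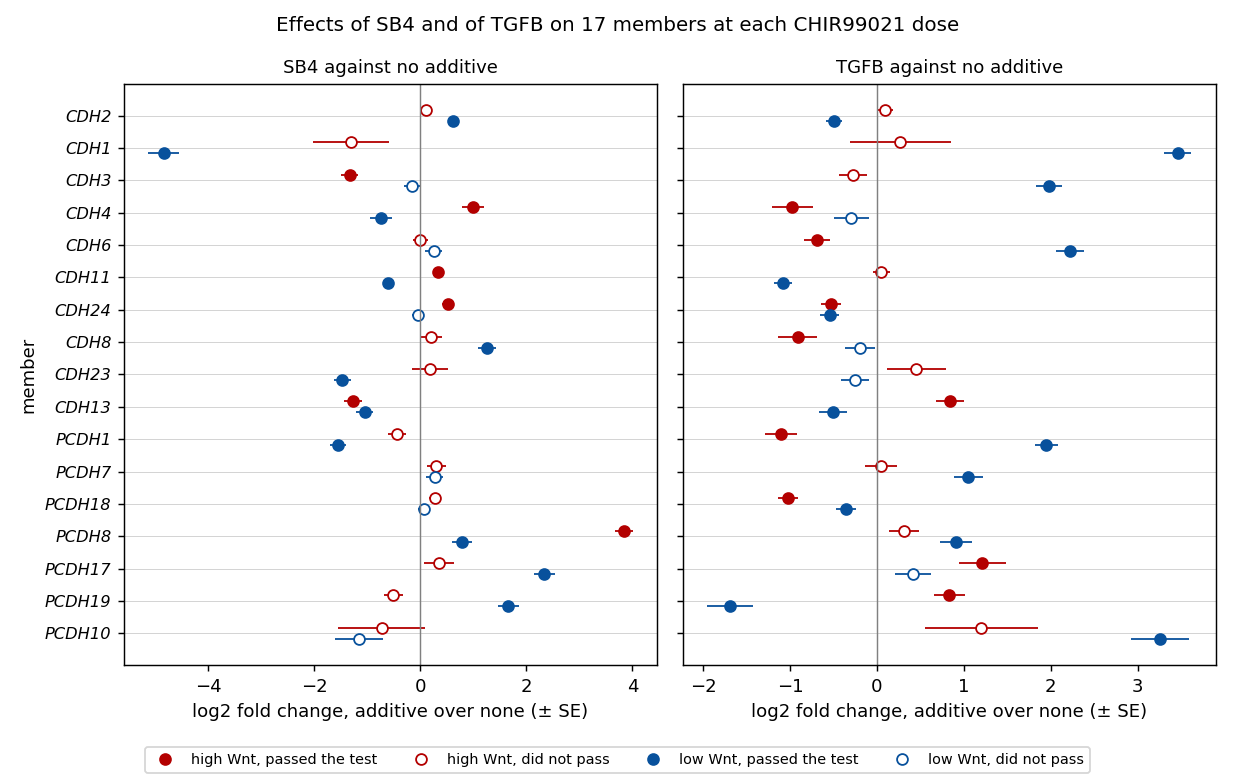
Log2 fold changes with standard errors of SB4 (left) and TGFB (right) over no additive for the 17 members with a group mean of at least 10 CPM, in high Wnt (red) and low Wnt (blue) cultures; filled points passed the test. The PCDH8 point for SB4 in high Wnt lies at 3.84, and the CDH1, CDH6, PCDH1 and PCDH10 points for TGFB are filled and lie to the right of 0 in low Wnt cultures.

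Of these 17 members 5 rose and 6 fell with SB4, and 7 rose and 6 fell with TGFB, in low Wnt cultures. Among all genes 4.84% rose and 6.39% fell with SB4 there, and 13.7% rose and 12.2% fell with TGFB. With 10 µM CHIR99021, 4 rose and 2 fell with SB4, against 9.94% and 11.6% of all genes, and 3 rose and 6 fell with TGFB, against 3.75% and 3.49%. Of the type I cadherins 3 of 5 fell with SB4 in low Wnt cultures (CDH1, CDH4 and CDH15), and of the delta-2 protocadherins 3 of 5 rose (PCDH8, PCDH17 and PCDH19). These include the calls of CDH4 and PCDH8 in low Wnt cultures that were lost without single libraries, where the adjusted p was 0.402 without low Wnt replicate 2, 0.13 without low Wnt + SB4 replicate 1 and 0.121 without low Wnt + SB4 replicate 2 for CDH4 and 0.0842 without low Wnt replicate 1, 0.0562 without low Wnt replicate 2 and 0.101 without low Wnt + SB4 replicate 2 for PCDH8.

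The other 12 tested members had group means of at most 7.95 CPM, the level of CDH7 in low Wnt + SB4 cultures, and CDH18 never exceeded 0.752 CPM. Of these 12, 2 were higher and 6 lower in high Wnt than in low Wnt cultures, against 19.4% and 19.1% of all genes. With SB4 1 rose and 2 fell in low Wnt cultures (4.84% and 6.39% of all genes), and 2 rose in high Wnt cultures (9.94%). With TGFB 3 rose and 2 fell in low Wnt cultures (13.7% and 12.2%), and 1 rose and 1 fell in high Wnt cultures (3.75% and 3.49%). Some of these calls rested on few counts, on single libraries or on the tool used. Between the doses, PCDH15 and CDH12 did not pass with DESeq2 (adjusted p = 0.106 and 0.0606). With SB4 in low Wnt cultures, CDH7 and CDH9 did not pass with DESeq2 (adjusted p = 0.0516 and 0.139). The CDH9 call there rested on 1 count against 11. With TGFB, CDH12 in low Wnt and CDH10 in high Wnt cultures did not pass with DESeq2 (adjusted p = 0.177 and 0.0873). Both TGFB calls in high Wnt cultures, PCDH9 and CDH10, were lost when single libraries were left out. So were those of PCDH20 and CDH7 in low Wnt cultures. The rise of CDH12 with SB4 in high Wnt cultures rested on 21 counts against 3. Among the 12 members 3 are described further, chosen after their values were seen. CDH9, a type II cadherin of neurons, had 8.11 and 6.91 CPM in low Wnt + TGFB and 0.365 and 0.299 in low Wnt, or 114 and 118 counts against 6 and 5, and no more than 6 counts in any other library. TGFB raised it in low Wnt cultures (4.46 ± 0.44, adjusted p = 3.0e-06), while both high Wnt + TGFB and both high Wnt libraries held 0 counts. CDH9 passed the filter on low counts only through the low Wnt + TGFB libraries, so this p-value is descriptive and no separate support. Over the group, CDH9 was at least 2.94-fold lower in high Wnt than in low Wnt cultures, the bound being 3 counts over the high Wnt group, and its adjusted p was 0.050 without high Wnt replicate 2, just over the threshold.

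CDH15, the M-cadherin of muscle, had 0.0635 and 0.0557 CPM in high Wnt + SB4, 1.34 and 0.491 in high Wnt + TGFB and 0.166 and 0.344 in high Wnt. CDH15 was at 2.13 and 2.04 CPM in low Wnt + SB4, 1.42 and 0.995 in low Wnt + TGFB, 7.18 and 5.98 in low Wnt and 1.26 and 1.53 in hESCs. Low Wnt cultures were the highest. It was lower in high Wnt than in low Wnt cultures (-4.61 ± 0.47, adjusted p = 5.5e-07) and lower with SB4 (-1.65 ± 0.33, adjusted p = 0.00363) and with TGFB (-2.45 ± 0.36, adjusted p = 8.2e-05) in low Wnt cultures. Muscle markers were near 0 in low Wnt libraries, with MYOD1 and MYF5 at 0 and a summed level of 2.80 and 2.75 CPM. CDH10, a brain type II cadherin, had 146 counts over both high Wnt libraries, 74 over both low Wnt libraries and 1 over both hESC libraries. The ratio to hESCs was 139 for high Wnt (exact 95% interval 24.6 to 5527, counting error only) and 56.5 for low Wnt (9.83 to 2261).

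The 5 members that were not tested held at most 17 counts in any library. These are CDH5, the VE-cadherin of endothelium, CDH16 of kidney, CDH17 of intestine, CDH19 of Schwann cell precursors, and PCDH12 of endothelium. CDH5 had a highest group mean of 0.883 CPM, in hESCs. The sum of 5 endothelial markers was 26.3 and 25.7 CPM in the high Wnt libraries, 172 and 178 CPM in the low Wnt libraries and 292 and 259.9 CPM in the hESC libraries, with PECAM1 at 0 in hESCs. It was led by TEK and TIE1 in high Wnt and by TEK and KDR in low Wnt and hESC libraries.

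Genes that work with cadherins were read from 4 lists. Of 14 tested catenins and junction partners, of 15 listed, 9 were higher and 3 lower in low Wnt cultures than in hESCs, against 35.8% and 35.6% of all genes, and 3 were higher and 6 lower in high Wnt than in low Wnt cultures, against 19.4% and 19.1%. Their median log2 fold changes were 0.82 and -0.07 in these 2 comparisons. CTNNB1, the beta-catenin that binds classical cadherins, stood between 540.4 and 675 CPM in all 14 libraries. CTNND2, the delta-catenin of neural cells, was higher in low Wnt cultures than in hESCs (2.52 ± 0.12, adjusted p = 2.2e-11), and lower in high Wnt than in low Wnt cultures (-3.37 ± 0.13, adjusted p = 2.8e-12). SB4 raised it in high Wnt (1.83 ± 0.13, adjusted p = 8.0e-08) and in low Wnt cultures (0.99 ± 0.11, adjusted p = 1.1e-05), and TGFB lowered it in low Wnt cultures (-1.6 ± 0.11, adjusted p = 2.5e-08). CTNND1 shares exons with the read-through gene TMX2-CTNND1, and reads that overlap both were not counted, so its level is uncertain.

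Desmosomes are a second kind of cadherin junction, built on desmosomal cadherins and plakins. Of 10 tested desmosome genes, of 12 listed, 9 were lower in low Wnt cultures than in hESCs, against 35.6% of all genes. In high Wnt cultures 4 were higher and 3 lower than in hESCs, against 36.3% and 36.1%, so that the share called was near that of all genes. In high Wnt relative to low Wnt cultures 6 of the 10 were higher, against 19.4%, with a median log2 fold change of 1.67. The plakin DSP had 764 and 770.3 CPM in high Wnt cultures, against 44.9 and 44.1 CPM in low Wnt cultures (4.11 ± 0.15, adjusted p = 2.0e-12), so that it was high where CDH1 was below 1 CPM. TGFB raised 5 desmosome genes in low Wnt cultures, among them DSP (2.1 ± 0.14, adjusted p = 2.1e-08), where 13.7% of all genes rose, and in high Wnt cultures 6 fell with SB4, where 11.6% of all genes fell.

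Of 17 tested FAT, Dachsous, CELSR and other cadherin relatives, of 20 listed, 10 were higher and 1 lower in low Wnt cultures than in hESCs, against 35.8% and 35.6% of all genes. Between the doses 3 were higher and 8 lower in high Wnt than in low Wnt cultures, against 19.4% and 19.1%. The list's median log2 fold changes were 0.51 and -0.40 in these 2 comparisons. CLSTN2, a calsyntenin of synapses, was higher in low Wnt cultures than in hESCs (5.84 ± 0.22, adjusted p = 1.0e-12) and lower in high Wnt than in low Wnt cultures (-3.0 ± 0.16, adjusted p = 2.1e-10). CELSR1, a planar polarity cadherin, was higher than in hESCs in high Wnt (2.8 ± 0.15, adjusted p = 6.3e-11) and in low Wnt cultures (2.91 ± 0.15, adjusted p = 4.9e-11). Of 9 enzymes that cut cadherins, all tested, 3 were higher and 1 lower in high Wnt than in low Wnt cultures, against 19.4% and 19.1% of all genes, with a median log2 fold change of 0.10. The membrane metalloprotease MMP14 was higher in high Wnt than in low Wnt cultures (1.99 ± 0.11, adjusted p = 3.1e-10), and SB4 lowered it in high Wnt (-0.87 ± 0.11, adjusted p = 2.6e-05) and in low Wnt cultures (-1.64 ± 0.12, adjusted p = 2.2e-07).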

How the data were processed

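Per the labels' protocols, polyadenylated RNA was made into strand-keeping libraries (NEBNext Ultra II directional). The tools were HISAT2 2.2.0, SAMtools 1.10, featureCounts 2.0.0 and bcl2fastq on hg38, per the submitters' processing notes. The authors deposited raw counts of read pairs per gene over exons of the UCSC hg38 annotation, with reverse strandedness and without multiply mapped reads or reads that overlap several genes, per the file headers, so such reads are missing from the values. Exon lengths and coordinates (1-based) are those deposited.

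Counts were analysed with R 4.3.3 and edgeR 4.0.16. Genes were kept by filterByExpr (16149 of 26485), TMM gave the scaling, and quasi-likelihood F-tests came from 1 fit of 14 libraries with 1 mean per group, which left 7 residual degrees of freedom. There were 10 contrasts, with Benjamini-Hochberg adjustment over all tested genes and a threshold of 0.05. Counts of both libraries of a group differed beyond sampling noise (chi-square over degrees of freedom 5.26 to 14.1), and each was kept as its own sample. CPM values are scaled by TMM, and FPKM divides them by kilobases of exon. A count of 0 allows 3 counts, and floors and intervals cover only counting error, as the reads carry no molecular identifiers.

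Members with a group mean of at least 10 CPM were described in full, and lower ones by counts. The members and the lists were chosen with earlier results of these data known. Alternatives were no filter on low counts, scaling by RLE or by library totals alone, DESeq2 1.42.0, only the groups compared, a replicate block, each library left out in turn and, added after seeing the data, a fit without the hESC libraries. The scripts were tested on simulated counts.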

Additional observations from a re-analysis of the deposited data

Results flagged for a closer look

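For 12 members the SB4 effect and for 13 members the TGFB effect differed between the doses by edgeR's test of the difference itself (adjusted p under 0.05). Values are the log2 effect in high Wnt minus that in low Wnt cultures. Among all tested genes the SB4 difference was positive for 2.71% and negative for 3.36%, and the TGFB difference for 5.73% and 6.06%.

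For SB4 the difference was positive for CDH1 (3.53), PCDH8 (3.06), CDH4 (1.74), CDH23 (1.65), PCDH1 (1.11), CDH11 (0.94) and CDH24 (0.57). It was negative for PCDH19 (-2.17), PCDH17 (-1.99), CDH3 (-1.19), CDH8 (-1.05) and CDH2 (-0.52). For TGFB it was positive for CDH15 (4.14), PCDH19 (2.52), CDH7 (1.71), CDH13 (1.35), CDH11 (1.13) and CDH2 (0.59). It was negative for CDH1 (-3.19), PCDH1 (-3.05), CDH6 (-2.91), PCDH20 (-2.56), CDH3 (-2.25), PCDH7 (-1.0) and PCDH18 (-0.66). The CDH15 value rests on few counts, 15 and 8 in high Wnt + TGFB and 2 and 5 in high Wnt libraries. Its TGFB effect in high Wnt cultures did not pass the test.

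Beyond the calls named in the results, the calls of CDH7 and PCDH20 were lost without single libraries. For CDH7 the adjusted p was 0.0923 without high Wnt replicate 2 and 0.0505 without high Wnt + TGFB replicate 2. For PCDH20 it was 0.0605 with only those groups fitted, 0.0511 with DESeq2, 0.0719 without high Wnt replicate 1, 0.126 without high Wnt replicate 2, 0.104 without high Wnt + TGFB replicate 1, 0.0987 without high Wnt + TGFB replicate 2, 0.163 without low Wnt replicate 1, 0.072 without low Wnt + TGFB replicate 1, 0.0971 without low Wnt + TGFB replicate 2 and 0.0561 with the hESC libraries left out.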

How the results depend on the processing

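No result for a tested member changed direction while called under the alternatives run. The number of members called for TGFB in high Wnt cultures was 11, and 5 to 8 with 1 library left out. With 1 library left out, the counts ran from 25 to 26 (low Wnt against hESC, 26 with all libraries), 18 to 23 (high Wnt against hESC, 21), 21 to 25 (low Wnt + TGFB against hESC, 24), 18 to 20 (high Wnt against low Wnt, 22), 10 to 11 and 13 to 15 (SB4 and TGFB in low Wnt, 14 and 18), 6 to 8 (SB4 in high Wnt, 8), and 8 to 10 and 9 to 13 (differences of the SB4 and TGFB effects, 12 and 13). The other alternatives moved each of the 10 counts by at most 1.5 times. Scaled by library totals alone, the summed FPKM was 380.3 in high Wnt + SB4, 254.6 in low Wnt + TGFB and 211 in hESC cultures. Without correction for exon length, the share of CDH2 was 15.1% in high Wnt + SB4, 22.3% in high Wnt + TGFB, 16.3% in high Wnt, 52.3% in low Wnt + SB4, 29.7% in low Wnt + TGFB, 39.4% in low Wnt and 9.75% in hESC cultures. Over all tested genes the replicate numbers paired the libraries weakly at most. Over 21 pairs of groups the correlation of same-numbered deviations ran from -0.12 to 0.21, and 5 exceeded 0.1. Such a correlation over all genes cannot exclude pairing for single members. CDH4 and CDH6 were higher in replicate 2, and PCDH18 was higher in replicate 1, in every group. With the replicate number as a block, 4 further calls were made, CDH4 in high Wnt against hESC (0.46, adjusted p = 0.0408) and PCDH18, PCDH1 and PCDH19 for SB4 in high Wnt cultures (adjusted p = 0.0211, 0.0379 and 0.0341). It changed no other call of a tested member and took the count for SB4 in high Wnt cultures to 11, against 8 without it. With 2 libraries per group and 1 cell line, members with few counts have wide errors, such as an SE of 0.71 for the SB4 effect on CDH1 in high Wnt cultures.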
